A study of Drosophila melanogaster with 3 samples.

Results

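Between 72 and 120 h after egg laying (AEL), 228 genes of the Drosophila lymph gland changed at least 4-fold in the same direction without reaching 4-fold in either of the 24 h steps in between. They are called slow net change genes here, and were chosen by one rule: at least 1 CPM (counts scaled to a library of 1000000) in the 120 or the 72 h AEL library, a ratio of (CPM + 1) of at least 4-fold between these libraries, and a ratio under 4-fold in the step to 96 h AEL and in the step after it. A change over the 48 h is always the level at 120 h AEL set against that at 72 h AEL. Of 17490 genes in the files, 9017 passed the CPM limit. Of those, 83 (0.92%) were slow and higher at 120 h AEL, and 145 (1.61%) were slow and lower. The rule used the values of all 3 libraries, so the changes that chose these genes are a description and carry no test.

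Bulk RNA-seq was performed on lymph glands from Oregon-R larvae, a wild-type strain, in steady state at 72, 96 and 120 h AEL, with a single library at each time. Each library was made from a pool of intact glands, from which, by the methods of the study, the dorsal vessel, ring gland and posterior lobes had been detached to leave the primary lobes. There was thus no replicate check of any difference, and all comparisons are between libraries. In bulk RNA, fewer cells of a type and less RNA per cell cannot be told apart.

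The lymph gland is the larval organ in which blood cells (hemocytes) form. Progenitors called prohemocytes give rise to plasmatocytes, which engulf debris and microbes, to crystal cells, which store the enzymes of melanization, and, mainly after wasp attack, to lamellocytes. The steroid ecdysone, made in the ring gland from dietary sterols by enzymes of the Halloween group, times the larval molts and the onset of metamorphosis, when the lymph gland releases its cells.

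Total counts were between 34278733 and 49511614 per library, and 3 counts correspond to a level between 0.0579 and 0.0905 CPM. Between 69.6% and 72.0% of the genes with 1 to 20 counts had an even count, so the counts were not single independent reads, and the intervals given below cover counting error only and are too narrow. Hemocyte markers were at high levels in all 3 libraries. Hml, which encodes a clotting protein made by hemocytes, had 7999, 15024 and 12241 CPM in the 72, 96 and 120 h libraries. RNA of other tissues was present and differed between the libraries. The summed level of the 23 tested midgut and digestive enzyme genes was 575, 26.2 and 26.5 CPM, with 12 of them 4-fold or more lower over the 48 h, and that of the 4 tested salivary gland genes was 28.7, 5.65 and 5.88 CPM. Fat body markers Fbp1 and Lsp1alpha were higher at 120 than at 72 h AEL, but their list did not rise as a whole. Of 19 tested fat body and oenocyte genes 5 rose and 5 fell 4-fold or more over the 48 h. The summed level of that list was 2759, 1074 and 1362 CPM. Many neuronal, muscle and ring gland genes were lower, and the values that touch a result are given beside it.

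Most of the large 48 h changes were in place by 96 h AEL. Of the 191 genes (2.12% of those tested) that were 4-fold or more higher over the 48 h, 101 were already 4-fold higher at 96 h AEL, 7 reached 4-fold in the second step alone, and the other 83 (43.5%) were slow. Of the 877 genes (9.73%) that were 4-fold or more lower, 728 were already 4-fold lower at 96 h AEL, 4 reached 4-fold in the second step alone, and 145 (16.5%) were slow. The slow genes therefore made up a larger share of the rising than of the falling genes. By its construction the rule makes both steps go the same way and keeps the 48 h ratio between 4-fold and 16-fold on the scale of CPM + 1. The median log2 ratio was 2.31 among the 83 rising genes (2.0 to 3.47) and -2.24 among the 145 falling genes, the largest of which fell by 3.31, beside a median of -0.04 over all genes tested.

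The word slow is the rule's, and many of the genes did not change gradually. The rising genes reached a median of 66.9% of their 48 h log2 change by 96 h AEL (quartiles 57.7% and 77.7%), and the falling genes 71.6% (58.5% and 83.9%). In 47 of the 83 rising genes and 90 of the 145 falling genes the first step alone was at least 3-fold. The second step was under 1.5-fold in 29 rising and 68 falling genes, which on this scale changed mainly before 96 h AEL. All values so far in this paragraph, and the 2 counts after it, are on the scale of CPM + 1, which damps steps at low levels. Without the pseudocount 34 rising and 71 falling genes passed 4-fold in the first step, and 4 and 23 in the second. On the scale of CPM + 1, a gradual course, with at least 2-fold in each step, was seen in 20 rising and 29 falling genes. On that scale the larger change came in the second step in 16 rising and 23 falling genes.

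**Figure D1:**
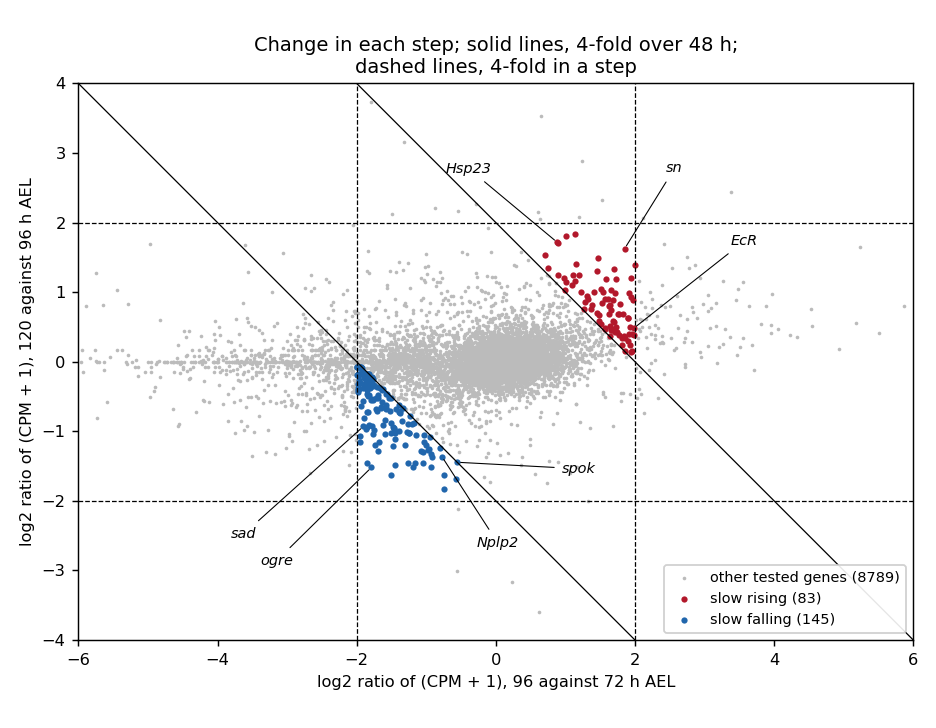
Each point is a gene, with its log2 ratio of (CPM + 1) between 96 and 72 h AEL on the x axis and between 120 and 96 h AEL on the y axis; red points are the 83 slow rising genes, blue points the 145 slow falling genes and grey points the other tested genes, with 27 genes beyond the axes. The slow genes fill the corner between the solid lines (4-fold over 48 h) and the dashed lines (4-fold in a step), and the blue points crowd toward the x axis, with a median second step of -0.66.

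At the limit itself, Ance-5 (log2 ratio 2.0) and CR45102 (2.02) were the rising genes just inside, and CR43459 and Mmp1 (both 2.0 by rounding) the genes just outside. Among falling genes, Pkcdelta and spok were just inside and 18w and CG17322 just outside, all at -2.0 by rounding. Genes at the edge thus belong or not by less than 0.02 on the log2 scale.

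The slow rising genes together took 0.244%, 0.753% and 1.14% of all counts in the 72, 96 and 120 h libraries. The slow falling genes took 1.52%, 0.710% and 0.297%. A single gene, Nplp2, made up most of the falling share: without it the falling genes took 0.528%, 0.164% and 0.0899%. Nplp2 is named as a neuropeptide-like precursor. The study describes it as an apolipoprotein, expressed in cells in transition between prohemocytes and mature hemocytes. It also reports that the share of gland cells with an Nplp2 reporter diminished over development. Nplp2 had 9448 CPM at 72 h AEL, 5519 CPM at 96 h AEL and 2145 CPM at 120 h AEL, and was 4.4-fold lower over the 48 h (95% interval 4.37 to 4.44). Only 36.3% of its 48 h log2 change had occurred by 96 h AEL.

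Among the slow rising genes, several belong to ecdysone uptake and response. Oatp74D encodes the ecdysone importer, a membrane carrier that lets the steroid into cells. It had 59.0 CPM at 72 h AEL, 230 CPM at 96 h AEL and 253 CPM at 120 h AEL, and was 4.29-fold higher over the 48 h (4.11 to 4.47). Almost all of its rise (93.5% on the log2 scale) fell before 96 h AEL, the largest such share among the rising genes. EcR, the nuclear receptor for ecdysone, had 26.3, 107 and 149 CPM in the 72, 96 and 120 h libraries and was 5.67-fold higher over the 48 h (5.34 to 6.02). Here too most of the rise, 80.5%, came first. EcR (chromosome 2R, 6087873 to 6169087, minus strand, BDGP6.54) was at a log2 ratio of 1.98 in the first step, just under the 4-fold limit, and passed 4-fold there without the pseudocount. In contrast, vri, which encodes a bZIP transcription factor of the circadian clock, had 14.1, 31.3 and 68.7 CPM and rose by nearly the same log2 amount in each step, 1.09 and then 1.11. Sox14, an ecdysone-induced transcription factor that was named after its values were seen, had 6.80, 28.1 and 44.0 CPM and was 6.47-fold higher over the 48 h (5.76 to 7.29).

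The list of ecdysone receptor and response genes as a whole did not move one way. Of its 31 tested genes, 4 rose and 10 fell 4-fold or more over the 48 h, and its median log2 ratio was -0.06. EcR and vri were its slow rising genes. Its 1 slow falling gene, Blimp-1, encodes a repressor that acts after an ecdysone pulse, and had 166, 2 and 0 counts in the 72, 96 and 120 h libraries. By counts without the pseudocount its first step was over 4-fold, so Blimp-1 was slow only on the scale of CPM + 1.

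Hsp27 and Hsp23 encode small heat shock proteins, chaperones that are induced by heat and, in larval tissues, by ecdysone. The genes lie close together on chromosome 3L (Hsp23 at 9381882 to 9382765 and Hsp27 at 9384063 to 9385694, both on the plus strand), 1297 bases apart. Hsp27 had 35.8, 109 and 251 CPM in the 72, 96 and 120 h libraries and was 7.01-fold higher over the 48 h (6.66 to 7.37). Hsp23 had 817, 1124 and 3335 counts (101 CPM at 120 h AEL and 15.8 CPM at 72 h AEL) and was 6.38-fold higher (5.91 to 6.89). The courses of this pair differed, since Hsp27 had passed 57.1% of its log2 change by 96 h AEL and Hsp23 only 34.0%. Of the 13 tested genes for heat shock proteins and chaperones these were the only ones at least 4-fold higher, 1 was at least 4-fold lower, and the median log2 ratio of the list was -0.35.

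**Figure D2:**
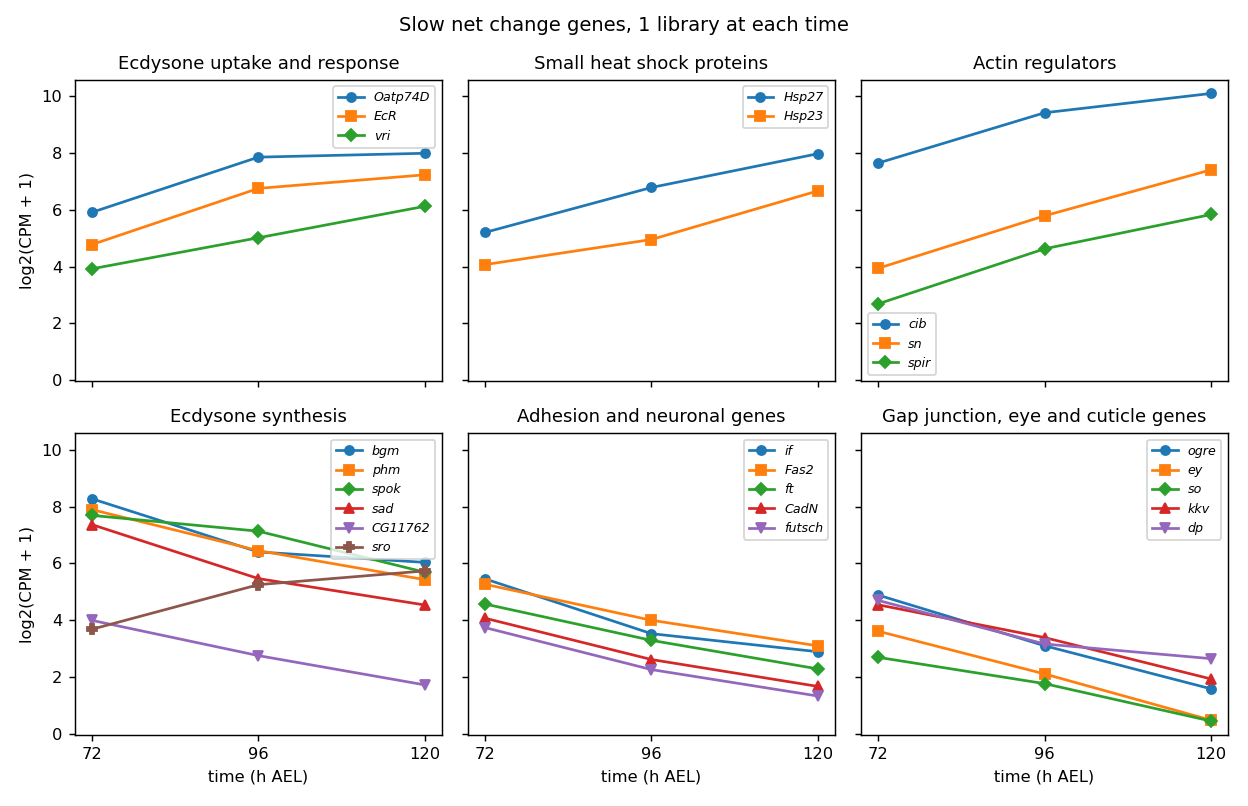
Level of single slow net change genes in each library, as log2(CPM + 1) on the y axis against time AEL in hours on the x axis, with 1 point per library and no error bars because there was 1 library at each time. In the upper panels every line climbs (sn was at 169 CPM at 120 h AEL and 14.3 CPM at 72 h AEL), and in the lower panels every line descends except that of sro.

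Actin regulators supplied 2 of the steepest rises. The gene sn encodes fascin, which bundles actin filaments. It had 14.3 CPM at 72 h AEL, 54.2 CPM at 96 h AEL and 169 CPM at 120 h AEL, and its log2 ratio of 3.47 was the largest of the 83 rising genes, with an 11.8-fold higher level over the 48 h (10.9 to 12.8). The rise was nearly even between the steps. The gene spir encodes an actin nucleator and had 5.43, 23.7 and 56.0 CPM, 10.3-fold higher over the 48 h (9.10 to 11.7). The gene cib encodes ciboulot, an actin-binding protein of the thymosin family, and was at a high level throughout, with 199, 682 and 1094 CPM. Of 32 tested genes for actin remodelling and cell shape, 4 were at least 4-fold higher, 3 of them slow, and 1 was at least 4-fold lower, with a median log2 ratio of 0.74. A further rising gene, cindr, which encodes an adaptor protein that links membrane proteins to actin, had 79.3, 291 and 367 CPM.

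The study's signature list for adipohemocytes, a class of hemocyte it described by genes for lipid handling and phagocytosis, had the largest share of slow genes of any list examined. The study chose this signature from single cells of lymph glands at the same ages, and it is not independent evidence of a direction. Of its 28 tested genes 16 were at least 4-fold higher over the 48 h, 9 of them (32.1% of the list, beside 0.92% of all genes tested) were slow, and none was at least 4-fold lower. The median log2 ratio of the list was 2.26, with 0.94 in the first and 1.26 in the second step. With a pseudocount of 5 CPM, or with steps under 3-fold, 4 of its genes were slow.

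The 9 genes were CG6770, CG8501, Hsp23, pinta, cer, hid, hng3, CG9989 and l(1)G0469. CG6770 had 93.1, 174 and 415 CPM in the 72, 96 and 120 h libraries, and CG8501 had 40.9, 91.9 and 245 CPM. Both changed more in the second step, as did Hsp23 and CG9989. CG9989, annotated as Sid, a nuclease named for its induction by stress, had 0.618, 2.56 and 11.7 CPM and was 18.9-fold higher over the 48 h (13.2 to 28.1). The gene hng3 had 1.04, 4.67 and 14.8 CPM. Its 2 steps were the most alike among the rising genes on the scale of CPM + 1, but without the pseudocount it passed 4-fold in a step. The gene cer encodes crammer, an inhibitor of cathepsin-like proteases, and had 7.94, 27.2 and 46.0 CPM, although 42.7% of its exonic bases overlap an antisense RNA gene. The gene pinta encodes a retinoid-binding protein first known from the eye and had 9.21, 30.6 and 49.8 CPM.

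The gene hid encodes an activator of cell death that blocks the inhibitor of caspases. It had 149, 508 and 927 counts (2.88, 13.5 and 28 CPM) and was 9.72-fold higher over the 48 h (8.17 to 11.6). Strica, a caspase gene named after its values were seen, had 9.19, 37.4 and 49.7 CPM and was 5.40-fold higher (4.88 to 6.0). Without the pseudocount the first step of hid was over 4-fold, and so hid was slow only on the scale of CPM + 1.

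The signature lists of the other hemocyte classes held fewer slow genes than that list. Over all genes tested 2.12% were at least 4-fold higher and 0.92% slow and rising. On the plasmatocyte list, 15 of 29 tested genes were at least 4-fold higher and 3 (10.3%), Glt, Ance-5 and CG8501, were slow. On the lamellocyte list 9 of 27 were higher and 4 (14.8%), cib, CG33462, Ac78C and CG33458, were slow. On the crystal cell list 13 of 30 genes were at least 4-fold higher and 1 (3.33%), NijB, was slow. The prohemocyte, posterior signaling center and GST-rich lists held 1 slow rising gene each, CG31174, mthl12 and hid. The posterior signaling center list also held 1 slow falling gene, CG44325. The median second step was 0.29 on the plasmatocyte list, 0.50 on the lamellocyte list, 0.24 on the crystal cell list and 1.26 on the adipohemocyte list, beside 0.00 over all genes tested. These lists share genes and libraries, and the difference between them was not tested.

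Glt encodes glutactin, a basement membrane glycoprotein, and was the slow rising gene with the most counts. It had 991 CPM at 72 h AEL, 3285 CPM at 96 h AEL and 4660 CPM at 120 h AEL, 4.70-fold higher over the 48 h (4.66 to 4.75). It was the only slow gene among 27 tested for basement membrane and matrix. CG33458 had 4, 124 and 341 counts, and its 133-fold higher level over the 48 h (51.6 to 492) was the largest fold of the rising genes without a pseudocount. Ac78C, an adenylyl cyclase gene, had 8.05, 26.6 and 50.4 CPM. PPO3, the prophenoloxidase of lamellocytes, named after its values were seen, had 50, 211 and 321 counts with a log2 ratio of 2.44. Another lamellocyte marker, atilla, had 342, 140 and 258 counts and took no such course.

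Other rising genes had varied roles. On the lists for lipid storage, synthesis and transport and for carbohydrate metabolism, 0 of 46 and 2 of 29 tested genes rose 4-fold or more and 11 and 5 fell, with a median log2 ratio of -0.67 on each. The gene fabp, which encodes a fatty acid binding protein, had 81.3, 282 and 502 CPM and was 6.17-fold higher over the 48 h (5.97 to 6.39), although 72.1% of its annotated exonic bases are shared with sea, so the split of reads between them is uncertain. CG10924, a gene for phosphoenolpyruvate carboxykinase, an enzyme of gluconeogenesis, had 3.46, 12.2 and 23.7 CPM. ZnT77C, a zinc transporter gene, had 5.77, 25.1 and 48.8 CPM and was 8.45-fold higher (7.47 to 9.59).

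Immune recognition was represented in both directions. PGRP-LA, of the peptidoglycan recognition protein family, had 4.63, 16.3 and 29.2 CPM and was 6.31-fold higher over the 48 h (5.47 to 7.30). AttB, an antibacterial peptide gene that was named after its values were seen, had 4, 101 and 127 counts. GNBP3, which recognizes fungal glucans, had 11.3, 2.19 and 1.57 CPM and was 7.19-fold lower (5.41 to 9.74). Of 23 tested genes of this list, 4 rose and 1 fell 4-fold or more over the 48 h.

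The Notch target E(spl)mbeta-HLH had 5.48, 23.3 and 28.8 CPM. On the same list fng, which encodes the glycosyltransferase that modifies Notch, had 8.38, 3.07 and 1.18 CPM, and Tom, of the Bearded family of Notch antagonists, had 348, 136 and 10 counts. Of 19 tested Notch genes these were the slow ones, so the list held 1 rising and 2 falling. The gene dsx, which directs somatic sex, had 1.97, 8.67 and 23.3 CPM and was 11.8-fold higher over the 48 h (9.6 to 14.7).

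Of the lists written from textbook roles, that for the ring gland and hormone synthesis held the most slow falling genes, among them 3 enzymes of ecdysone synthesis. Of 23 tested genes for ring gland and hormone synthesis, 11 were at least 4-fold lower over the 48 h and 5 of these (21.7% of the list, beside 1.61% of all genes tested) were slow. The gene phm encodes a Halloween cytochrome P450 and had 237 CPM at 72 h AEL, 86.3 CPM at 96 h AEL and 41.9 CPM at 120 h AEL, 5.65-fold lower over the 48 h (5.34 to 5.98). The gene sad, for another Halloween P450, had 164, 43.1 and 22.1 CPM and was 7.4-fold lower (6.86 to 7.99). The gene spok, for a further enzyme of this group, kept more of its level to 96 h AEL, with 205, 139 and 50.5 CPM, so that only 27.8% of its log2 change fell in the first step.

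CG11762, annotated as ouib, encodes the zinc finger factor that drives spok in the prothoracic gland, the part of the ring gland that makes ecdysone. It had 14.9, 5.73 and 2.29 CPM and was 6.51-fold lower over the 48 h (5.14 to 8.35). The gene bgm, for an acyl-CoA synthetase of very long-chain fatty acids, had 309, 83.5 and 64.5 CPM and was 4.79-fold lower (4.58 to 5.01). These 5 genes were lower in each later library, but their first steps varied in size from -0.56 for spok to -1.9 for sad on the log2 scale.

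The gene sro, also of the Halloween group, went the other way. It had 11.8, 37.0 and 52.2 CPM and was 4.43-fold higher over the 48 h (4.03 to 4.86). Ring gland tissue was detached at dissection, and how completely this was done in each library is not given in the sources used here. Other Halloween genes of the same list were also lower late: nvd, the first enzyme of the path, had 25.5, 19.6 and 10.2 CPM, and dib had 12.3, 1.17 and 1.09 CPM. The study's own ring gland signature did not fall with this list. Of its 25 tested genes 3 rose and 4 fell 4-fold or more, CG9989 was slow and rising and the integrin gene if slow and falling, and its median log2 ratio was 0.35, with 1.00 in the second step. The summed level of the signature was 678, 194 and 369 CPM. With a pseudocount of 5 CPM, with limits of 3-fold or 5-fold, or with steps under 3-fold, the list held 3 slow falling genes. The part of ring gland cells in these values was not tested.

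**Figure D3:**
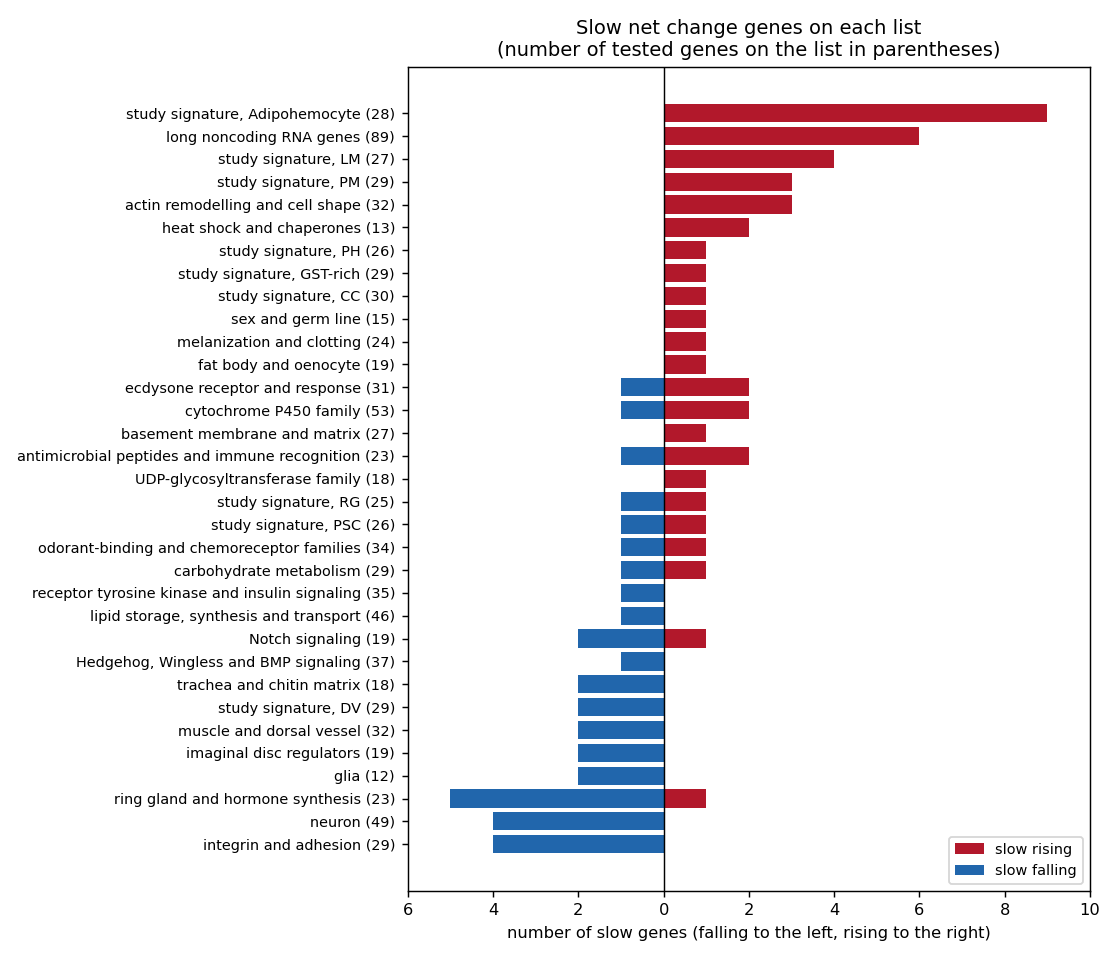
Number of slow genes on each list that held at least 1, with rising genes in red to the right and falling genes in blue to the left, and the number of tested genes of the list in parentheses. The adipohemocyte signature holds 9 rising and 0 falling genes, and the ring gland list 5 falling and 1 rising. PM, LM, CC, PH, PSC, DV and RG are the study's abbreviations for plasmatocyte, lamellocyte, crystal cell, prohemocyte, posterior signaling center, dorsal vessel and ring gland.

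ACC, the gene for acetyl-CoA carboxylase, the first committed enzyme of fatty acid synthesis, was among the most abundant falling genes. It had 681 CPM at 72 h AEL, 194 CPM at 96 h AEL and 150 CPM at 120 h AEL and was 4.54-fold lower over the 48 h (4.41 to 4.68). It was the only slow gene among 46 tested for lipid storage, synthesis and transport. Gfat1, for the first enzyme of the hexosamine pathway, had 24.0, 5.89 and 2.53 CPM and was 9.48-fold lower (7.6 to 12). The gene apt, for a transcription factor, had 121, 33.4 and 23.8 CPM, and alpha-Man-IIb, for a Golgi mannosidase that trims protein sugars, had 106, 42.4 and 17.9 CPM with nearly even steps.

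Some cell adhesion genes were slow and falling. Of 29 tested genes for integrins and adhesion 4 (13.8%, beside 9.73% of all genes tested) were at least 4-fold lower over the 48 h, a share near the background, and all 4 of these were slow, while 2 were at least 4-fold higher and neither was slow. The gene named if encodes the integrin subunit alphaPS2, and had 42.9, 10.5 and 6.40 CPM in the 72, 96 and 120 h libraries, 6.70-fold lower over the 48 h (5.82 to 7.76). Fas2, a homophilic adhesion protein of axons and epithelia, had 37.4, 15 and 7.54 CPM and was 4.96-fold lower (4.35 to 5.68). The gene ft encodes the giant cadherin Fat of the Hippo and planar polarity pathways, and had 22.7, 8.77 and 3.86 CPM. CadN, the neuronal cadherin, had 15.8, 5.12 and 2.17 CPM and was 7.27-fold lower (5.71 to 9.38). The median log2 ratio of the list was 0.00, so the list as a whole did not fall with these 4. With a pseudocount of 5 CPM 1 adhesion gene was slow and falling, and with a 5-fold limit 2.

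Some gap junction genes were among the slow falling ones, and gap junction genes were not examined as a list. The genes ogre and Inx2 encode innexins, and lie head to head on the X chromosome, 7353 bases apart. The gene ogre had 1480, 284 and 66 counts (28.6, 7.57 and 1.99 CPM) and, with a 14.3-fold lower level over the 48 h (11.2 to 18.7), had the largest log2 fall of the 145 genes. Inx2, named after its values were seen, had 48.8, 18.8 and 11.4 CPM and was 4.28-fold lower (3.84 to 4.78). The gene zyd, for a potassium-dependent sodium and calcium exchanger studied in cortex glia, had 22.5, 5.09 and 1.75 CPM and was 12.9-fold lower (9.88 to 17).

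Neuronal genes were lower after 72 h AEL mostly in the first step alone. Of 49 tested neuronal genes, 28 were at least 4-fold lower over the 48 h, beside 9.73% of all genes tested. Of these 28, CadN, futsch, Sh and scrt were slow, 8.16% of the list beside 1.61% of all genes tested. The gene futsch, for a microtubule-associated protein of axons, had 12.4, 3.79 and 1.51 CPM and was 8.19-fold lower (6.14 to 11.2). Sh, for a potassium channel, had 324, 46 and 24 counts, and scrt, for a zinc finger factor of neurons, had 218, 79 and 0 counts. The summed level of the list was 667, 460 and 443 CPM in the 72, 96 and 120 h libraries. Its synaptic markers nSyb (29.1, 0.427 and 0.211 CPM), Syt1 (22.6, 0.480 and 0.513 CPM) and brp (11.1, 0 and 0.121 CPM) were thus at or near 0 by 96 h AEL, while the slow genes were still falling. The pan-neuronal marker elav had 18.6, 8.43 and 7.94 CPM. The part of nerve tissue in these results was not tested.

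Muscle and dorsal vessel genes showed the same division. Of 32 tested, 23 were at least 4-fold lower, beside 9.73% of all genes tested. Of these, 2, Unc-89 and Strn-Mlck, were slow, 6.25% of the list beside 1.61% of all genes tested. Unc-89, for the giant sarcomere protein obscurin, had 38.2, 8.96 and 6.52 CPM and was 5.86-fold lower over the 48 h (5.09 to 6.77). Strn-Mlck, for a stretchin and myosin light chain kinase, had 19.7, 5.52 and 4.01 CPM. On the study's dorsal vessel signature, CG9336 (33.2, 9.01 and 3.86 CPM) and CG34445 (350, 56 and 22 counts) were slow, of 23 genes at least 4-fold lower among 29 tested. The summed level of the muscle and dorsal vessel list was 8081, 2909 and 2857 CPM, and Mhc, the muscle myosin heavy chain, had 902, 48.2 and 32.4 CPM. The part of muscle or dorsal vessel tissue in these values was not tested. A filamin gene, jbug, which crosslinks actin, had 27.1, 6.24 and 2.44 CPM and was 11.1-fold lower (8.86 to 14.1).

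Genes of cuticle and trachea, eye and patterning completed the falling group. The gene kkv encodes chitin synthase and had 22.3, 9.47 and 2.81 CPM, 7.95-fold lower over the 48 h (6.43 to 9.93). The gene dp encodes the giant extracellular matrix protein Dumpy, which anchors epithelia to cuticle, and had 24.9, 7.95 and 5.25 CPM. Of 18 tested genes for trachea and chitin matrix 14 were at least 4-fold lower, beside 9.73% of all genes tested. The 2 genes kkv and dp were slow, 11.1% of the list beside 1.61% of all genes tested. The gene ey, the Pax6 factor of eye fate, had 11.2, 3.31 and 0.392 CPM and was 28.6-fold lower (16.6 to 54.1). The homeobox factor so, which acts with ey and was on the same list of 19 tested imaginal disc regulators, had 283, 90 and 12 counts. The receptor kinase gene sev had 11.9, 3.15 and 2.14 CPM, and tok, for a secreted protease of the Tolloid family, had 31.5, 9.15 and 3.56 CPM.

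Several large lists held no slow gene. Over all genes tested 2.53% were slow, so lists of this size would hold few or none at that share. There was none among 41 tested genes for DNA replication, 41 for mitosis, 84 cytosolic and 72 mitochondrial ribosomal protein genes, 23 for phagocytosis and scavenging, 25 hemocyte transcription factors and 30 glutathione S-transferase genes. For replication, mitosis and the ribosomal proteins, 0 genes changed 4-fold over the 48 h in either direction. Cuticle protein genes were different, since 34 of 52 tested were at least 4-fold lower over the 48 h and all 34 had reached 4-fold in a single step. Phagocytosis genes likewise had 5 of 23 at least 4-fold higher and 0 slow.

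Whether a step passed 4-fold without the pseudocount depended on level. The median share of the log2 change in the first step moved little with a filter of 10 CPM. It was 66.8% for rising genes (66.9% reported) and 67.5% for falling genes (71.6% reported). Among genes with under 10 CPM in the higher of the 120 and 72 h AEL libraries, a pseudocount of 1 CPM damps the ratio, and a gene whose counts fell to near 0 by 96 h AEL can stay inside the rule. Of the 83 rising genes 65 had at least 10 CPM, and of the 145 falling genes 80. By the ratios of scaled counts with no pseudocount, 36 rising genes and 83 falling genes passed 4-fold in at least 1 step. Of the genes named by rule these were 11 rising (EcR, spir, ZnT77C, E(spl)mbeta-HLH, hid, dsx, CG5399, hng3, CG31183, CG9989 and CG33458) and 7 falling (if, Unc-89, jbug, Gfat1, zyd, GNBP3 and ey). Some genes named after their values were seen also passed 4-fold in a step on that scale. Among these were Sox14, Strica, PPO3, AttB, Lsp2, so, Sh, Tom, scrt, olf413 and CG34445. The other 47 rising and 62 falling genes were under 4-fold in both steps on either scale, and of these 46 rising and 55 falling had at least 10 CPM. In the lower library 4 rising and 20 falling genes were under 3 counts.

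**Figure D4:**
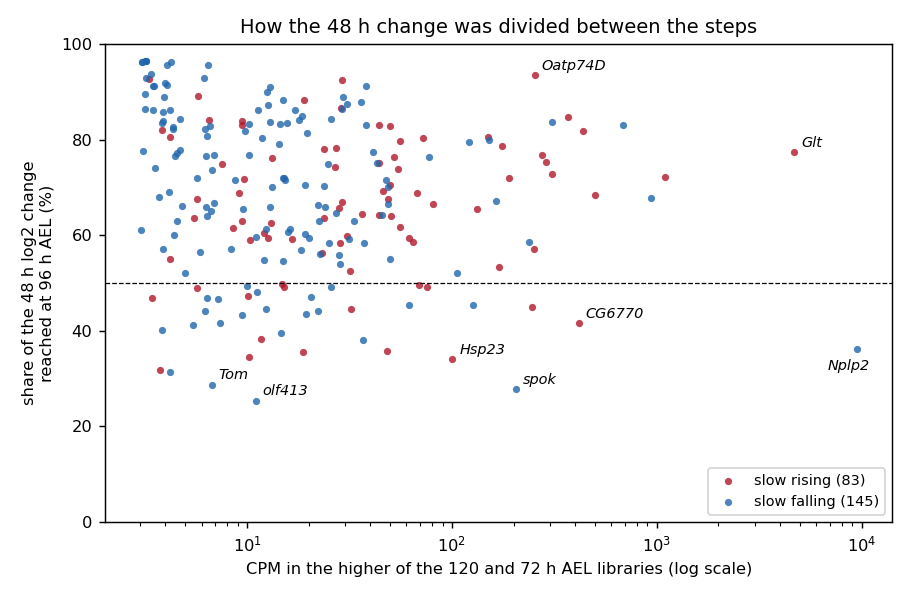
Share of the 48 h log2 change of (CPM + 1) reached at 96 h AEL, in percent on the y axis, against the level in CPM in the higher of the 120 and 72 h AEL libraries on a log x axis, with red points for the 83 rising and blue points for the 145 falling genes. The share runs from 31.8% to 93.5% among rising genes and from 25.4% to 96.4% among falling genes, and the blue points of highest share sit at the lowest levels.

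On the scale of CPM + 1 the gene with the latest fall was olf413, named after its values were seen. It had 570, 265 and 50 counts and had reached only 25.4% of its log2 change by 96 h AEL. The genes spok and Tom followed at 27.8% and 28.8% on that scale. The order may differ without the pseudocount, since Tom and olf413 had few counts at 120 h AEL. Among rising genes, Lsp2, the gene for a larval serum protein of the fat body, had the lowest share on the scale of CPM + 1, 31.8%. It had 0, 24 and 124 counts (0, 0.640 and 3.74 CPM), so this share depends on the added 1 CPM and does not show a late rise. Lsp2 was at least 64.6-fold higher over the 48 h by counts, taking 3 counts as the floor at 72 h AEL, and 84.6% of its exonic bases overlap an antisense gene. Lsp2 was named after its values were seen. Of the other fat body markers, Fbp1 had 10, 0 and 3479 counts and Lsp1alpha 50, 996 and 1292 counts. In contrast, Lsp1beta was highest at 96 h AEL, with 93.9, 159 and 142 CPM in the 72, 96 and 120 h libraries. Of 19 tested fat body and oenocyte genes 5 rose and 5 fell 4-fold or more over the 48 h, with Lsp2 the only slow one, and the summed level of the list was 2759, 1074 and 1362 CPM. The part of fat body tissue in these values was not tested.

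Slow falling genes were long. Annotated exonic length had a median of 4316 bases over the 145 slow falling genes, all of them protein-coding, against 1977.5 bases over the protein-coding genes that had fallen 4-fold by 96 h AEL and 2205 bases over all those tested. With at least 10 CPM the medians were 5356.5, 1976.5 and 2293.5 bases. The 77 protein-coding slow rising genes had a median of 2001 bases, close to the 2101 bases of genes that had risen 4-fold by 96 h AEL. The longest named falling genes included dp (71820 bases), Strn-Mlck (32768 bases), futsch (23308 bases) and ft (16852 bases). Length was not used by the rule, but levels in CPM are not per length, so at equal transcript number a long gene has more counts. These lengths are a description of the chosen genes, with no test.

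**Figure D5:**
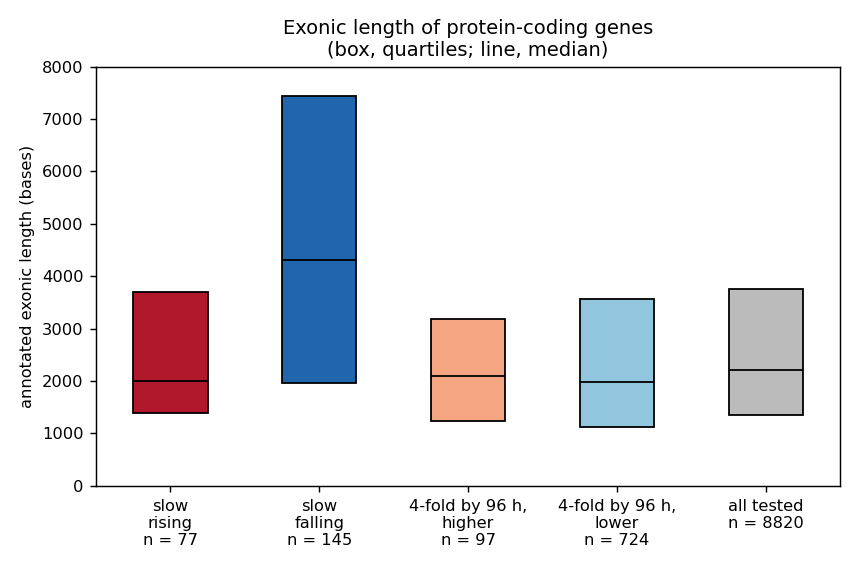
Annotated exonic length in bases of protein-coding genes on the y axis for slow rising, slow falling and earlier 4-fold genes and for all tested genes, where the box spans the quartiles and the line is the median. The slow falling box (median 4316 bases) reaches to 7442 bases, while the other 4 medians lie between 1977.5 and 2205 bases.

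The genes were spread over the genome. Chromosome arm 3L held 26.5% of the slow rising genes, beside 19.5% of all tested genes that matched the annotation, and chromosome X held 29 of the 145 slow falling genes, beside 16.9% of all tested. Neighbouring pairs under 10000 bases apart were few: beside Hsp23 with Hsp27 and ogre with Inx2, they included sn with Tbh and CG17928 with Ugt36Bc, both rising, and twit with CG9336, falling. Tbh, the octopamine synthesis gene downstream of sn, had 104, 284 and 551 counts. The pair melt (347, 74 and 26 counts) and corn (2038, 4785 and 5800 counts) overlap by 84 bases on opposite strands and moved in opposite directions. The noncoding genes among the slow ones were 6 long noncoding RNA genes, all rising, of 89 tested (6.74%, beside 0.92% of all genes tested).

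Exons of 26 slow rising and 40 slow falling genes overlap those of another annotated gene, in 2 of each by at least 50% of their length. Whether strand was used in counting is not given in the sources used here, so reads of such genes and their antisense partners cannot be told apart.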

How the data were processed

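RNA-seq was available for 1 lymph gland library each at 72, 96 and 120 h AEL, grouped by the time in the labels. The values the authors deposited are read counts for each gene, whole and not normalized. The submitters' processing notes name FastQC (0.11.8), STAR (2.5.3a), featureCounts (1.6.0) and the BDGP6 build; settings, annotation, strand and read pairing are not given in the sources used here. Library sizes were scaled by TMM in edgeR (4.0.16), with factors of 1.05, 0.989 and 0.967, and log2 ratios were taken after adding 1 CPM, so ratios of low genes are understated. The filter of 1 CPM was applied before scaling. Folds compare scaled counts with nothing added, and their 95% intervals (exact, Clopper-Pearson) treat both counts as Poisson. Where a library was under 3 counts the fold was computed with 3 and is a bound. No test was run, since there was 1 library at each time. The functions were tested on simulated data.

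Genes were named by rule. Among slow genes with at least 10 CPM at 120 or 72 h AEL these were the 12 largest and 12 smallest log2 ratios, the 10 rising and 10 falling with most CPM, the 5 of each most evenly divided between the steps, and every gene on a list, with no CPM minimum for the 2 genes on each side of the limit. This named 75 genes; others are marked as named after their values were seen. Lsp2, Tom, fng, Sh, scrt, Blimp-1, CG34445, so, NijB, l(1)G0469, Tbh, melt and corn were among those others, as were the neighbours of named genes. The members and lists were chosen with earlier results of these data known. Lists came from textbook roles, and the signature lists were the first 30 names of each class in the study. Hsp, cytochrome P450, UDP-glycosyltransferase, carbohydrate, receptor kinase, BMP, glia, chemoreceptor and melanization lists held 1 to 3 slow genes each, and 0 were found on the JAK-STAT, niche, midgut, salivary gland, oxidative stress, serpin, lectin, vacuolar proton pump, histone and small RNA lists. Exonic lengths and positions are from BDGP6.54, to which all 228 genes matched. The other tools were R (4.3.3) with DESeq2 (1.42.0) and Python (3.11.15) with pandas (2.3.3), SciPy (1.17.1), NumPy (2.4.6) and Matplotlib (3.10.9).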

Additional observations from a re-analysis of the deposited data

How the results depend on the processing

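With 1 library at each time, no spread between samples could be measured, no library could be left out of the comparison, and no paired analysis was possible because no group has a second sample. Scaling by total counts, DESeq2 size factors and thinning to the smallest total left the numbers of rising and falling genes within 1.5 times those reported. Leaving out the filter, or taking 1 CPM in any library, gave the same genes. These settings could not do otherwise, since a 4-fold ratio of CPM + 1 already needs more than 1 CPM in the higher library. A pseudocount of 5 CPM gave 48 rising and 43 falling genes. A filter of 10 CPM gave 82 falling genes, a 3-fold limit gave 125 rising genes, and steps under 3-fold with 4-fold over 48 h gave 32 rising and 51 falling genes.

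Similar numbers did not mean the same genes: a pseudocount of 0.1 CPM gave 175 falling genes, of which 62 were among the 145 reported, and 82 rising genes, of which 49 were among the 83. The median share of the log2 fall in the first step, 71.6%, was 58.3% with that pseudocount, 57.0% with no pseudocount and a floor of 3 counts (an alternative chosen after seeing the data), and 56.6% with steps under 3-fold. In total 40 rising and 61 falling genes were slow under TMM, total counts, DESeq2 factors, pseudocounts of 0.1 and 0.5 CPM and thinning alike. The median log2 ratio of the adhesion list, 0.00, was -0.11 with total counts, -0.013 with DESeq2 factors and -0.018 after thinning, so its sign is not settled; total counts moved the median of all genes to -0.15. The 75 named genes kept their direction in all 525 comparisons made of them. This outcome was all but fixed in advance, because the rule chose these genes for a log2 ratio of at least 2 in size. Over all slow genes, the whole counting interval of the 48 h fold passed 4-fold in 79 rising and 140 falling genes, and in 74 and 135 with halved counts. List counts moved too. With steps under 3-fold the slow rising genes numbered 4 on the adipohemocyte list (9 reported), 0 on the lamellocyte list (4), 1 on the plasmatocyte list (3) and 0 on the actin list (3), and the slow falling genes 3 on the ring gland list (5), 2 on the neuronal list (4) and 0 on the muscle list (2). A pseudocount of 5 CPM left 0 neuronal genes and one of 0.5 CPM gave 7 on the lamellocyte list, while a 5-fold limit gave 7 neuronal and 4 muscle genes and total counts 1 muscle gene.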
